A study of Drosophila melanogaster with 2 samples.

Results

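The genes described are 39 Drosophila melanogaster genes whose products build ribosomes in the nucleolus, among 13945 protein-coding genes on the main chromosome arms. They were taken as a list of gene names and matched to the Ensembl annotation of the dm6 assembly, where each name matched 1 gene. By role, 7 act in small nucleolar ribonucleoproteins (snoRNPs), 8 in the small subunit, 14 in the large subunit, 5 in the RNA exosome, and 5 have other nucleolar roles. The question asked of them is where the transcription factor Max sat at their promoters in embryos. The data are chromatin immunoprecipitation followed by sequencing (ChIP-seq) from 1 group of 2 biological replicates, numbered 2 and 3. The embryos were whole, of both sexes, and 0 to 24 h old, from a line with a stable transgene for Max that carries GFP at its C terminus. The immunoprecipitation used an antibody against GFP on chromatin sonicated to 200 to 800 bp. No second group exists here, so the comparisons are between genes and between the replicates, and whole embryos do not show which cells carried a peak.

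Ribosome assembly starts in the nucleolus, where ribosomal RNA is transcribed, modified by snoRNPs, cut and trimmed, and folded with ribosomal proteins by a large set of assembly factors. Max pairs with Myc or with Mnt through its leucine zipper, and the pairs bind the E-box CACGTG. Myc drives growth in flies, and genes of ribosome assembly, among them pitchoune (pit), are long known as its targets. The E-boxes themselves are therefore shown first.

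For 14 of the genes, 30 bases around the CACGTG nearest the transcript start are printed below, in the direction of the gene, from the RefSeq sequence of genome Release 6 (dm6). Capitals mark the CACGTG. They show genes of each role that holds the motif, from high to low peak scores, and how the flanking letters differ while all lie within 50 bp of the start.
Nop56 (chr3R:22421023-22421052, minus strand): acttgaagtaagCACGTGggaaaacaactg
Nopp140 (chr3L:21832780-21832809, plus strand): ataagtagaaaaCACGTGtgagtgcgcatt
NHP2 (chr3L:14802132-14802161, minus strand): ggtcacactgaaCACGTGtttcgaacaaaa
nop5 (chr2L:6918733-6918762, minus strand): agaccgaaggcaCACGTGcttgcacttcat
RIOK1 (chr3L:11648421-11648450, minus strand): tggcattcgcaaCACGTGcgattggttgta
l(2)k09022 (chr2L:6854145-6854174, plus strand): acaccaacaaaaCACGTGtggagtgcggtt
RIOK2 (chr3R:25265837-25265866, plus strand): ctatcgtgcctgCACGTGtgaaacgaaaac
l(3)72Dn (chr3L:16228691-16228720, minus strand): ctcttaggcacaCACGTGcatctccagagg
Nnp-1 (chr2L:13366138-13366167, minus strand): atcgaacggcaaCACGTGcggtcgtgccgt
Ns1 (chr3R:17072636-17072665, minus strand): gaagactattttCACGTGttcttgttttaa
ppan (chr3R:21116256-21116285, plus strand): cactgatccataCACGTGcgggagaaaagt
Noc2 (chr2L:21163632-21163661, plus strand): cgttgaacagcaCACGTGcatttttgtttt
pit (chr3R:22035745-22035774, plus strand): aatggttagcaaCACGTGcgcgcaatattt
Surf6 (chr3R:19904820-19904849, minus strand): cttgcttagctgCACGTGtgcgtgcgtaaa

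Max-GFP lay at the promoters of nearly all of these genes, with high peak scores and with summits close to the transcript start. A gene is called bound where a summit of the pooled list that passed the authors' threshold on the irreproducible discovery rate (IDR, an estimate of how many of the called peaks would not repeat between replicates) lay within 500 bp of any of its annotated starts. By this rule 35 of the 39 were bound (89.7%, 95% Wilson interval 76.4 to 95.9), against 25.9% of all protein-coding genes. The interval covers counting over genes only. All 8 small-subunit genes and all 14 large-subunit genes were bound, as were 6 of 7 snoRNP genes, 4 of 5 with other nucleolar roles and 3 of 5 exosome genes. No test was applied to these counts, because the list was drawn up with results of these data known and genes are not replicates.

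The score is the authors' own enrichment score, on a scale of its own in each list, and serves here only to rank peaks within a list. A value given for a replicate is that of the highest summit within 500 bp of a start in that replicate's own list. This summit can lie at another place than the pooled one. Over the 35 bound genes the highest promoter summit scored a median of 307.2 (range 88.8 to 682.1, quartiles 195.7 and 466.1), and over all 3613 bound genes it scored a median of 155.4 (quartiles 114.3 and 233.2). Of the 35, 34 scored above the median of all 2855 IDR promoter peaks, which was 142.7, and 14 lay among the highest-scoring 10% of them. The median was 487.1 for snoRNP genes, 312.9 for large-subunit genes, 266.2 for small-subunit genes, 192.3 for the other nucleolar genes and 169.1 for exosome genes. The ranges of the roles overlapped: nop5, of the snoRNP genes, scored below 2 of the 3 bound exosome genes. At the threshold itself the lowest score of the IDR list was 87.0, the exosome gene Rrp40 lay just inside it at 88.8, and the next of the 39 below it was Rrp46 at 66.4 (rank 6893).

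**Figure D1:**
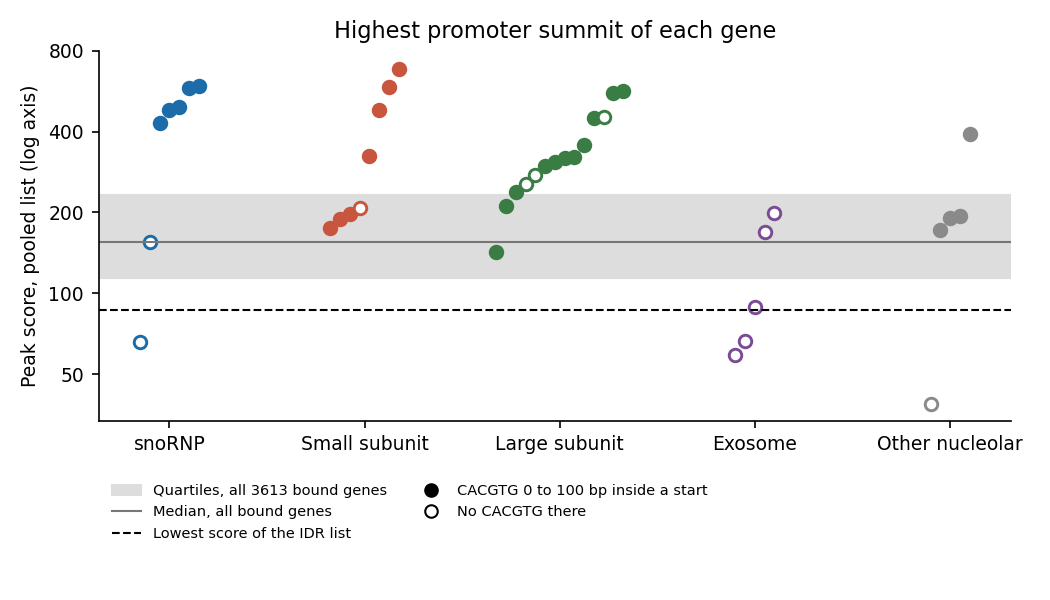
Score of the highest promoter summit of each of the 39 genes in the pooled list (log axis), by role, with the lowest IDR score of 87.0 as a dashed line and the median (155.4) and quartiles of all 3613 bound genes in grey. Filled points have CACGTG 0 to 100 bp inside a start; most snoRNP points stand above the grey band, and the exosome points are all open.

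All 39 genes had at least a weaker summit in the pooled list of 30000 peaks, where 57.2% of all protein-coding genes had one. Of the genes with a pooled summit, 45.3% of all genes and 35 of the 39 reached the IDR list. Each of the 39 also had a summit in both whole replicate lists, as did 47.2% of all genes. When only the 4712 highest peaks of each replicate were read, as many as the IDR list holds, 34 of the 39 (87.2%) had a promoter summit in both replicates, against 20.6% of all genes. The bound gene without one was Rrp40.

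The position of the peaks was close to the start. The summit lay within 100 bp of a start of the gene in 31 of 35 bound genes (88.6%), against 38.6% of all bound genes, and the median position was 25 bp upstream (-25) against 116 bp upstream (-116). Of the 35 summits, 23 lay upstream of the gene and 12 lay in the 5′ UTR. A summit upstream of the own start was thus less frequent here (65.7%) than over all bound genes (84.2%). None lay in an intron or a coding exon. For 33 of the 35 the nearest annotated start was the gene's own (94.3%), against 70.1% of all bound genes.

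Many of these promoters lie near a start of another gene. A start of another protein-coding gene, on either strand, lay within 500 bp of a start in 26 of the 39 (66.7%), against 30.9% of all genes. Either start can claim a summit near both. Of the genes of the list, 23 of the 26 with a neighbour were bound (51.1% of all such genes were), and 12 of the 13 without one (14.7% of all such genes). A summit within 500 bp of starts of different genes was shared by 21 of the 35 bound genes, against 61.1% of all bound genes, and such a summit cannot be assigned to 1 gene by position alone. The 35 bound genes had 35 different summits, so none of them shared a peak with another of the list.

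**Figure D2:**
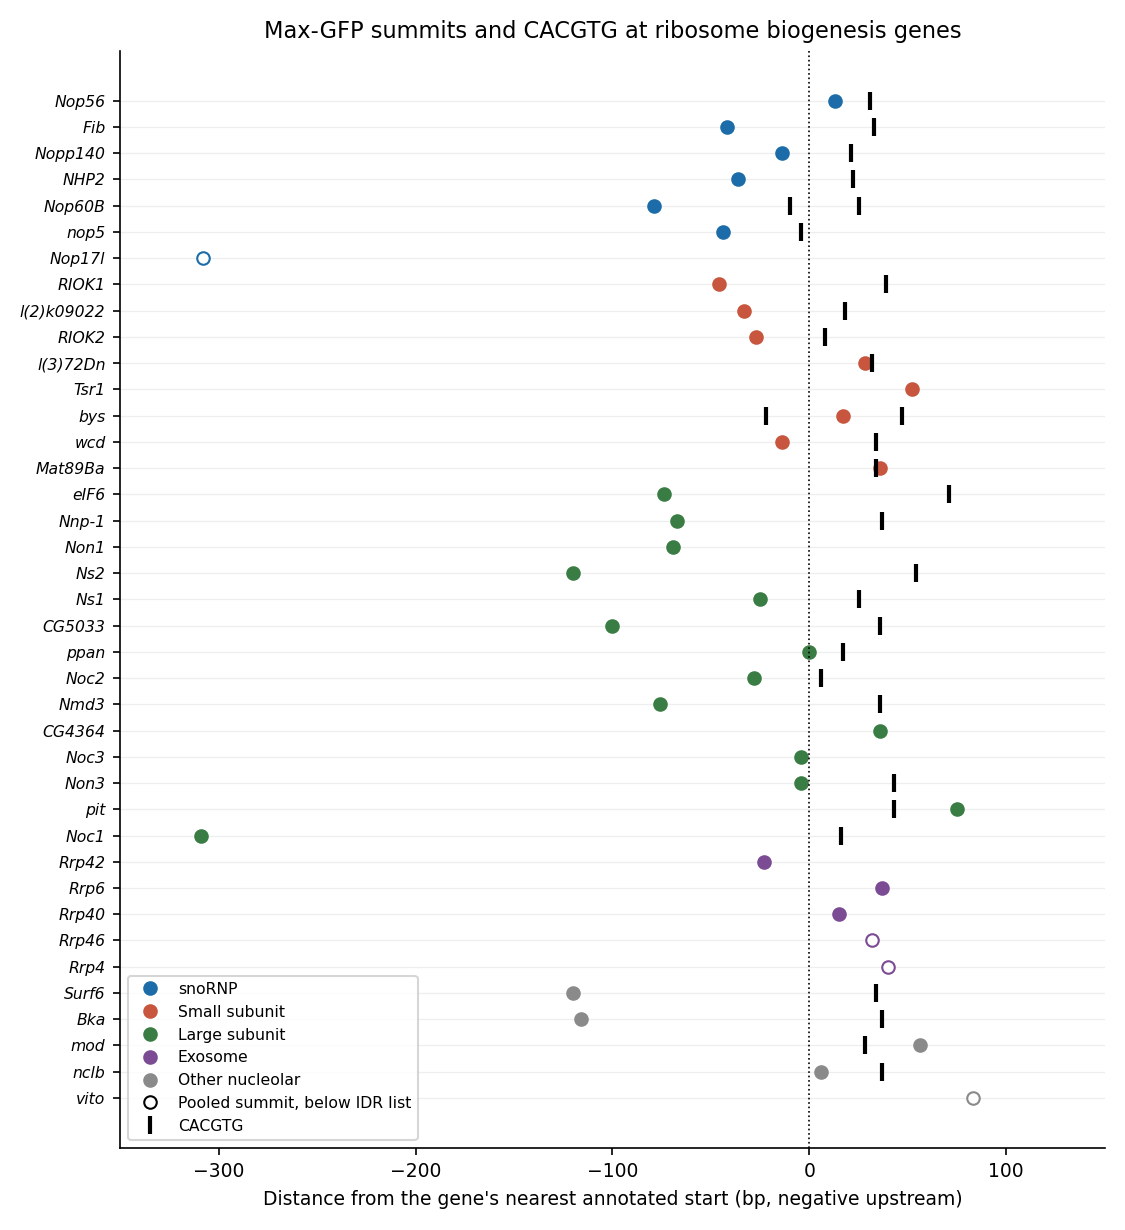
Distance in bp from the gene's nearest annotated start to the highest pooled summit (circles, open where the summit was below the IDR list) and to each CACGTG (bars), for the 39 genes grouped by role and ordered by score within a role. Most circles fall within 100 bp of the start and most bars between 0 and 50 bp inside it, to the right of the circle.

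Among the 39, the snoRNP genes had the highest median score of the roles, an order not seen in the other ribosome biogenesis genes described further on, and every bound one had CACGTG within 100 bp of its summit. Nop56, a core protein of the box C/D particles that guide methylation of ribosomal RNA, had the highest summit of the group, at chr3R:22420865-22421268, with a score of 591.9 (rank 78 of the pooled list). Its score was 376.7 (rank 63) in replicate 2 and 215.7 (rank 111) in replicate 3. The summit lay in the 5′ UTR, 13 bp inside the start, and the E-box 18 bp further in. This was a high-ranking peak in both replicates, and its window also holds a start of mats.

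Fib encodes fibrillarin, the methyltransferase of the same particles. Its summit scored 582.0 (rank 84), with 399.5 (rank 50) in replicate 2 and 187.8 (rank 164) in replicate 3. It lay 42 bp upstream of the start, shared with CG3085, and the E-box was 33 bp inside Fib. The third core protein, nop5, stood apart from these 2 with a score of 155.3 (rank 1896), 99.0 (rank 1822) in replicate 2 and 59.2 (rank 1974) in replicate 3. Here the E-box lay 4 bp upstream of the start, outside the transcript, the only one of the 28 genes with a nearby CACGTG to have it on that side alone.

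Nop60B and NHP2 belong to the box H/ACA particles, which guide pseudouridylation, and Nop60B is the fly dyskerin, the pseudouridine synthase. NHP2 scored 481.9 (rank 151), 292.1 (rank 149) in replicate 2 and 182.4 (rank 177) in replicate 3, with the E-box 22 bp inside its start. Nop60B scored 428.8 (rank 202), 313.0 (rank 117) in replicate 2 and 126.8 (rank 434) in replicate 3. Nop60B, whose summit is shared with mRpS17, has an E-box on each side of its start, 10 bp upstream and 25 bp inside. Nopp140, a phosphoprotein that carries snoRNPs between nucleolus and Cajal bodies, had a peak of its own with a score of 492.4 (rank 140), 292.5 (rank 148) in replicate 2 and 204.7 (rank 126) in replicate 3. Its E-box lay 21 bp inside the start and 35 bp from the summit.

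Nop17l, named for a yeast factor of box C/D assembly, was the snoRNP gene without an IDR peak. Its best pooled summit scored 65.8 (rank 6973) in an intron, 308 bp upstream of the nearer of its 2 starts, and 3 more pooled summits scored 65.4, 44.9 and 22.5. In replicate 2 the highest summit scored 39.5 (rank 7967) and lay elsewhere, 131 bp upstream of a start. In replicate 3 it scored 48.6 (rank 2706), 331 bp upstream, which is within the highest 4712 of that replicate. The nearest IDR summit was 5987 bp away, at TTLL12 and puml. Neither CACGTG nor the related hexamers described further on, CACGCG and then CATGTG, were found within 100 bp of its best pooled summit.

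All 8 small-subunit genes were bound, and 7 of them had CACGTG both near the summit and inside the start. The kinase RIOK1, which in yeast and human cells acts on the late small-subunit precursor, had the highest score of all 39 genes. Its summit, in the peak chr3L:11648329-11648790, scored 682.1 (rank 48), with 473.0 (rank 28) in replicate 2 and 211.4 (rank 117) in replicate 3. It lay 46 bp upstream of RIOK1. The E-box was 39 bp inside RIOK1. A second IDR summit at RIOK1, 251 bp upstream, scored 218.4.

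The gene l(2)k09022 encodes the counterpart of human HEATR1, a component of the early small-subunit processome. It scored 585.3 (rank 83), 343.9 (rank 89) in replicate 2 and 237.3 (rank 86) in replicate 3, so its rank was nearly the same in both. The kinase RIOK2, whose summit is shared with the glutaminyl-tRNA synthetase gene GlnRS, scored 479.9 (rank 152), 325.3 (rank 104) in replicate 2 and 153.9 (rank 277) in replicate 3. The E-box lay 18 bp inside l(2)k09022 and 8 bp inside RIOK2, in both cases downstream of the summit.

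The remaining processome genes had lower scores. The gene l(3)72Dn, counterpart of yeast UTP4, scored 325.3 (rank 402), 201.3 (rank 393) in replicate 2 and 131.3 (rank 408) in replicate 3, with its summit 4 bp from the E-box and shared with Tmx3. The gene wcd, counterpart of yeast UTP18, scored 189.7 (rank 1315), 135.3 (rank 1011) in replicate 2 and 51.4 (rank 2472) in replicate 3. Mat89Ba, counterpart of human NOL6, scored 175.4 (rank 1520), 117.7 (rank 1333) in replicate 2 and 61.5 (rank 1858) in replicate 3. Mat89Ba was the lowest of the small-subunit genes, yet its summit and E-box were only 2 bp apart. In wcd they were 48 bp apart.

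Bystin (bys), which in yeast joins the small-subunit precursor in the nucleolus, scored 198.0 (rank 1215), 114.7 (rank 1397) in replicate 2 and 89.3 (rank 932) in replicate 3. It has an E-box on each side of its start, 22 bp upstream and 47 bp inside, with the summit between them. Tsr1, a late small-subunit factor in yeast, scored 207.2 (rank 1121), 149.2 (rank 814) in replicate 2 and 53.2 (rank 2325) in replicate 3. Tsr1 was the small-subunit gene without CACGTG and has CATGTG 34 bp inside its start.

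All 14 large-subunit genes were bound, and 11 had CACGTG 0 to 100 bp inside a start. Only 5 of the 14 had it within 100 bp of the summit, and in the other 6 with an E-box inside the start the summit lay from 67 bp (Nnp-1) to 309 bp (Noc1) upstream. The initiation factor eIF6, which keeps the new large subunit from joining the small one, had the highest score, 568.1 (rank 94). It scored 298.3 (rank 136) in replicate 2 and 270.4 (rank 65) in replicate 3, the best rank of the 39 genes in that replicate. Its summit lay 74 bp upstream and its E-box 71 bp inside the start, so they were 145 bp apart. Of the E-boxes 0 to 100 bp inside a start, it was the one furthest in.

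Nnp-1, counterpart of yeast RRP1, scored 554.8 (rank 101), 352.6 (rank 80) in replicate 2 and 194.0 (rank 151) in replicate 3. Its summit is shared with Grx3 and the E-box lay 37 bp inside Nnp-1. The GTPase Non1, counterpart of yeast NOG1, followed at 452.3 (rank 173), 303.8 (rank 131) in replicate 2 and 148.3 (rank 298) in replicate 3. Non1 shares its summit with l(2)k10201 and is the highest-scoring of the 39 without a CACGTG nearby. It has CATGTG on each strand, in overlapping copies, 29 and 31 bp upstream of its start.

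The nucleostemin-like GTPases Ns1 and Ns2 were both bound. Ns2, whose summit is shared with POSH, scored 451.0 (rank 175), 265.6 (rank 190) in replicate 2 and 178.6 (rank 184) in replicate 3. Ns1, whose summit is shared with mRpS11, scored 356.5 (rank 319), 219.3 (rank 307) in replicate 2 and 144.4 (rank 317) in replicate 3. Both had nearly the same rank in the replicates, and their E-boxes lay 54 bp inside Ns2 and 25 bp inside Ns1.

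CG5033 and CG4364 encode the fly counterparts of BOP1 and pescadillo, which work in 1 complex on the large-subunit precursor. CG5033 scored 321.3 (rank 410), 219.6 (rank 306) in replicate 2 and 102.6 (rank 703) in replicate 3, with CACGTG 36 bp inside its start. CG4364 scored 275.9 (rank 600), 195.4 (rank 417) in replicate 2 and 89.5 (rank 927) in replicate 3. The partners thus ranked near each other, but CG4364 has CACGCG, 19 bp inside its start, in place of CACGTG.

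The Noc proteins form pairs that accompany the large-subunit precursor in yeast. Noc2 scored 307.2 (rank 462), 178.0 (rank 525) in replicate 2 and 123.4 (rank 464) in replicate 3, with the E-box 6 bp inside the start, the closest of the E-boxes inside a start. Noc3, whose summit is shared with CG10053, scored 255.6 (rank 722), 177.9 (rank 529) in replicate 2 and 80.5 (rank 1140) in replicate 3, and has CATGTG in place of CACGTG, 21 bp inside. Noc1 was the lowest of the large-subunit genes. Its highest summit scored 142.9 (rank 2176) and lay 309 bp upstream, where the start of Pfdn2 is nearer, while a second IDR summit 38 bp upstream scored 123.2 and lies by the E-box. Noc1 scored 112.9 (rank 1437) in replicate 2 and 37.4 (rank 4067) in replicate 3, where the summit was 49 bp upstream.

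Among the other large-subunit genes, peter pan (ppan) scored 318.6 (rank 419), 190.8 (rank 438) in replicate 2 and 122.2 (rank 475) in replicate 3. Its summit fell on the annotated start itself, with the E-box 17 bp inside. The export adaptor Nmd3 scored 296.7 (rank 492), 215.0 (rank 326) in replicate 2 and 81.1 (rank 1120) in replicate 3. For Nmd3 the start of CG17776 lay nearer to the summit, and the E-box was 36 bp inside Nmd3. Non3, counterpart of yeast RPF2, scored 237.7 (rank 832), 190.9 (rank 437) in replicate 2 and 59.3 (rank 1972) in replicate 3, and shares its summit with mTerf5.

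The DEAD-box helicase pit scored 211.6 (rank 1069), 168.8 (rank 608) in replicate 2 and 39.3 (rank 3788) in replicate 3. Of the bound genes it was the one whose replicate ranks differed most, by 6.2 times. Its summit lay 75 bp inside the nearer of its 2 starts, and the E-box 43 bp inside. The E-box of Non3 lay at the same distance, 43 bp inside its start.

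The exosome trims precursors of ribosomal RNA from the 3′ end, and among the 39 its genes had the lowest median score of the roles. None of the 5 has CACGTG 0 to 100 bp inside a start or within 100 bp of the summit. Rrp42, a subunit of the ring, scored 199.5 (rank 1202), 116.5 (rank 1353) in replicate 2 and 77.8 (rank 1210) in replicate 3, and shares its summit with Prosbeta1, a proteasome subunit gene. The nuclear exonuclease Rrp6 scored 169.1 (rank 1641), 109.4 (rank 1538) in replicate 2 and 66.1 (rank 1640) in replicate 3, in a window that also holds starts of CG33331 and CG33332. Neither CACGTG nor a related hexamer was found within 100 bp of the summit of Rrp6, as was also so in 7 other bound genes, but these 7 have CACGTG inside a start and Rrp6 has none of the hexamers there.

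Rrp40, an RNA-binding cap subunit, entered the IDR list at 88.8 (rank 4580), with 63.0 (rank 4031) in replicate 2 and 24.7 (rank 7621) in replicate 3. It shares its summit with Eno, the enolase gene. Rrp4, also a cap subunit, was not bound: its pooled summit scored 58.9 (rank 7999), 34.5 (rank 9628) in replicate 2 and 19.5 (rank 11562) in replicate 3. The ring subunit Rrp46 was not bound either, at 66.4 (rank 6893), 31.4 (rank 10999) in replicate 2 and 36.9 (rank 4154) in replicate 3. These weak summits still lay at the start, 40 bp inside Rrp4 and 32 bp inside Rrp46. The nearest IDR summit was 8098 bp from Rrp4, at levy and wmd, and 2805 bp from Rrp46, at CG6345.

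Of the genes with other nucleolar roles, Surf6, counterpart of yeast RRP14, had the highest score, 393.4 (rank 245). It scored 253.9 (rank 210) in replicate 2 and 137.3 (rank 357) in replicate 3, and its summit, 120 bp upstream, is shared with RhoGAP92B. Bka scored 193.3 (rank 1280), 161.4 (rank 673) in replicate 2 and 40.0 (rank 3691) in replicate 3. The nucleic-acid-binding protein gene mod scored 191.2 (rank 1297), 134.6 (rank 1026) in replicate 2 and 59.2 (rank 1973) in replicate 3. The E-box lay 34 bp inside Surf6, 37 bp inside Bka and 28 bp inside 1 of the 2 starts of mod, not the canonical one.

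The chromatin-binding nucleolar protein gene nclb scored 171.3 (rank 1589), 123.1 (rank 1205) in replicate 2 and 44.2 (rank 3184) in replicate 3. Its summit is shared with CG30016, and the E-box lay 37 bp inside nclb. The gene vito, a relative of human NOL12, was not bound. Its best pooled summit scored 38.7 (rank 14097) in a coding exon, 83 bp inside the start. The highest summits of the replicates lay elsewhere. In replicate 2 the summit scored 48.0 (rank 6103), 4 bp upstream of the start. In replicate 3 it scored 14.3 (rank 20691), 297 bp inside the start, the lowest rank of the 39 in that replicate. The nearest IDR summit to vito was 6131 bp away, at scny.

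A second IDR summit stood at 10 of the 39 promoters: nop5, NHP2, RIOK1, Nnp-1, Non1, Non3, Noc1, Noc3, CG4364 and mod. The share of all genes with a second IDR summit was not counted. In NHP2, RIOK1, Nnp-1, Non1, Non3, Noc3 and CG4364 the second summit lay only 200 to 205 bp from the first. The chromatin was sonicated to 200 to 800 bp, and whether these summits are separate sites of Max was not tested. The second summits scored between 87.4 (mod) and 218.4 (RIOK1), lower than the first summit by 1.2 times in Noc1 to 3.9 times in NHP2. Noc1 alone had CACGTG within 100 bp of the second summit. Below the IDR list, l(3)72Dn had a further pooled summit of 86.8 (rank 4732), 171 bp upstream, just under the threshold, and the other such summits of bound genes scored between 27.4 and 76.3.

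The replicates ranked the bound genes in a similar order. Over the 35 bound genes the ranks in the 2 replicates had a Spearman rho of 0.87, as a description over genes, against 0.73 over the 3584 bound genes with a summit in both lists. The bound genes were selected with these same 2 replicates, so rho is not an independent measure of their agreement. The 4 unbound genes are not in it. The median rank of the 39 genes was 438 in replicate 2 (range 28 to 10999) and 932 in replicate 3 (range 65 to 20691), and 28 of the 35 bound genes ranked higher in replicate 2. A difference of more than 3 times was seen in 7 of the 35 (pit, Bka, Non3, RIOK1, Nop60B, Nmd3 and Fib), always with the higher rank in replicate 2, and in 10.1% of all bound genes. In 26 of the 35 the summits of the replicates lay within 50 bp of each other. For these 26, and for the 28 ranked higher in replicate 2, the share of all bound genes was not counted. Neither count is therefore shown to be particular to these genes. A cause of the lower ranks in replicate 3 was not tested, and the lists give no read depth.

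**Figure D3:**
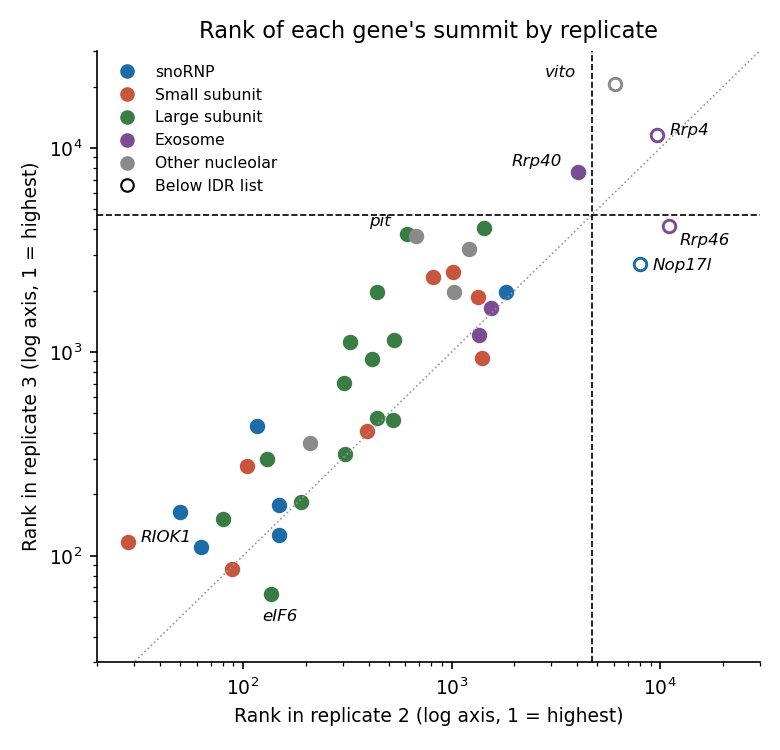
Rank of each of the 39 genes' summits in replicate 2 and in replicate 3 (log axes, 1 is the highest score), with dashed lines at rank 4712 and a dotted line of equal rank; open points are below the IDR list. Most points lie above the dotted line, ranked higher in replicate 2, and Rrp46 and Nop17l pass the dashed line in replicate 3 only.

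CACGTG stood at 1 place in most of these genes, just inside the transcript. Counted without the peaks, 27 of the 39 (69.2%, 95% Wilson interval 53.6 to 81.4) have it 0 to 100 bp downstream of a start, against 2.34% of all protein-coding genes. On the other side, 1 to 100 bp upstream, 3 of the 39 have it (7.69%, against 1.43% of all genes). The counts downstream were 5 of 7 snoRNP genes, 7 of 8 small-subunit genes, 11 of 14 large-subunit genes, 4 of 5 other nucleolar genes and 0 of 5 exosome genes. With positions given for the 4th base of the motif, the 27 E-boxes lay 6 to 71 bp inside the start, at a median of 34 bp. All 27 were in the 5′ UTR, and 23 lay between 16 and 47 bp, a range chosen after the values were seen (85.2%, against 58.3% of the 331 downstream E-boxes of all genes).

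**Figure D4:**
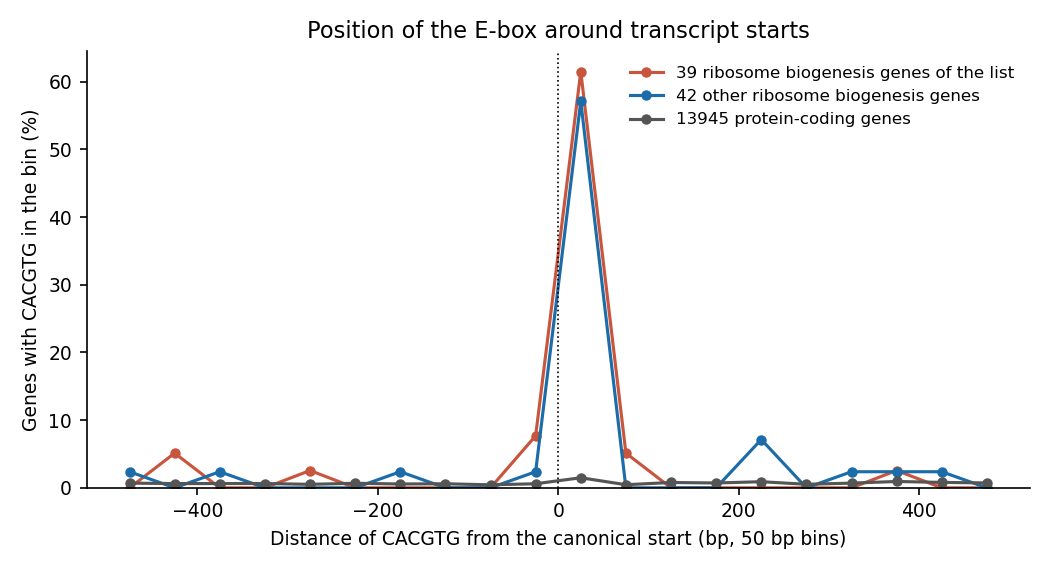
Share of genes (%) with CACGTG in each 50 bp bin around the canonical start, for the 39 genes, for 42 other ribosome biogenesis genes and for all 13945 protein-coding genes. The first 50 bp inside the start hold the motif in 61.5% of the 39 and 57.1% of the 42, against 1.49% of all genes, while the neighbouring bins hold at most 7.69%.

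Most of these E-boxes lay near a summit: 18 of the 27 were 100 bp or less from it, and the furthest, in Noc1, was 325 bp away. Counted on either side of the start, CACGTG was within 100 bp of the summit in 20 of the 35 bound genes (57.1%), against 7.67% of all bound genes. It was within 50 bp in 14 (against 4.40%). In 24 of the 27 genes with a downstream E-box the motif was on the gene's side of the summit. Over all 27 its median position was 50 bp to that side. The bases that follow CACGTG were C in 12 of the 27 and T in 13, with 1 each of A and G. As in RIOK1, Nnp-1 and ppan above, CG followed in 9 of 27 (33.3%, against 13.3% of the downstream E-boxes of all genes), and A preceded the motif in 17 of 27 (63.0%, against 32.0%).

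All 27 genes with a downstream E-box were bound, and 8 of the 12 without one. Over all protein-coding genes 61.0% of the 326 with such an E-box were bound and 25.1% of those without. The bound genes of the list with a downstream E-box scored a median of 325.3 (range 142.9 to 682.1, n = 27), and those without scored 203.3 (range 88.8 to 452.3, n = 8), so the ranges overlapped. Over all bound genes the medians were 233.7 with it and 151.6 without. These 27 are 8.28% of the 326 genes that carry the motif at this place, and outside the list and the other ribosome biogenesis genes below, 273 of 13864 genes (1.97%) carry it, of which 147 (53.8%) were bound.

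Where a summit was shared, most of the ribosome biogenesis genes held the E-box and none of the neighbours did. The 21 genes with a shared summit have 22 neighbours with a start in the same window, and 0 of the 22 have CACGTG 0 to 100 bp inside a start. Over all protein-coding genes 2.34% have it there, so 0 of 22 is near that share. Of the 21 themselves 16 have it there, and of the 14 with a peak of their own 11 have it. This comparison was chosen after the values were seen.

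In 11 of the 39 no CACGTG lies within 250 bp of a start or 100 bp of the summit: Nop17l, Tsr1, Non1, Noc3, CG4364, Rrp6, Rrp4, Rrp40, Rrp42, Rrp46 and vito. Of these 9 have the related hexamer CACGCG or CATGTG, on either strand, within 100 bp of the summit, against 11.7% of all bound genes without CACGTG there and 12.5% of such genes with any pooled summit. Likewise 9 of the 11 have CACGCG or CATGTG 0 to 100 bp inside a start, against 8.91% of all genes without CACGTG there and 3 of the 27 with it. These hexamers were examined in these genes after the values were seen. The 6 below show, with the hexamer in capitals, the stretch just inside the start where the others have CACGTG. The last is written in the direction of the gene, where CATGTG reads CACATG.
Tsr1 (chr3L:21335234-21335263, plus strand): gaatcgacagaaCATGTGctctagctccag
Noc3 (chr3R:7246934-7246963, minus strand): ccgttggcgttcCATGTGctcgtcccattc
CG4364 (chr2L:9711238-9711267, minus strand): acacttcctttcCACGCGaaaccaacaaca
Rrp40 (chr2L:1728768-1728797, plus strand): ttttgaaagacaCACGCGgattttttgttt
Rrp46 (chr3R:10413320-10413349, plus strand): acgaggcgatagCACGCGcacgttgttttc
vito (chr3L:5777294-5777323, minus strand): actggccgctcgCACATGttgaaaacgtaa

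From the start the hexamer lies 34 bp inside Tsr1, 21 bp inside Noc3, 19 bp inside CG4364, 51 bp inside Rrp40, 34 bp inside Rrp46 and 25 bp inside vito. It lies 24 bp inside Rrp42 as CATGTG and 4 bp inside Rrp4 as CACGCG. Non1 also has CACGCG 32 and 77 bp inside its start, over 100 bp from its summit. Of these 9 genes, Rrp4, Rrp46 and vito were not bound, so the letters occur at weak summits too. A match of letters is not evidence that the site is used.

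Other promoter motifs were searched on both strands within 100 bp of the summit of the 35 bound genes. The DNA replication-related element TATCGATA was there in 6 (17.1%, against 10.9% of all bound genes). The Ohler 1 motif GGTCACAC was in 6 (17.1%, against 6.86%), Ohler 6, GGTATTTT, in 5 (14.3%, against 4.43%), and Ohler 7, CATCNCTA, in 1 (2.86%, against 8.05%). The hexamer TATAAA, part of the TATA box, was in 6 (17.1%, against 37.8%). GC content within 50 bp of the summit had a median of 39.6%, against 33.7% over all bound genes, and whether it accounts for the motif shares was not tested. In the fixed window from 250 bp upstream to 50 bp inside the canonical start, CACGTG was in 25 of the 39 (64.1%, against 4.26% of all genes), the element TATCGATA in 8 (20.5%, against 8.94%) and TATAAA in 17 (43.6%, against 45.3%). In that window Ohler 1 was in 9 (23.1%, against 7.54%) and Ohler 6 in 6 (15.4%, against 5.06%). Ohler 7 was in 4 (10.3%, against 6.32%), so its share lay above that of all genes there and below it around the summit.

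A further 42 genes of ribosome biogenesis, listed by role from general knowledge of the pathway, were read in the same way. They too were chosen with earlier results of these data known, so they are not an independent check. Of the 42, 38 were bound (90.5%, against 25.9% of all genes), with a median score of 258.2. A summit among the highest 4712 of both replicates was found in 35 (83.3%, against 20.6%). CACGTG lay 0 to 100 bp inside a start in 26 of the 42 (61.9%, against 2.34%). It lay within 100 bp of the summit in 25 of the 38 bound (65.8%, against 7.67% of all bound genes). The median summit was 14 bp upstream of the start (-14). By role 4 of 4 snoRNP genes, 14 of 15 small-subunit genes, 15 of 16 large-subunit genes, 4 of 6 exosome genes and Noa36 were bound. The order of the roles was not that of the 39: the median score of the bound genes was 143.6 for snoRNP, 221.2 for small-subunit, 285.6 for large-subunit and 290.3 for exosome genes. In only 2 of the 4 bound exosome genes was a start of the gene itself the nearest to the summit.

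The 3 highest-scoring snoRNP genes of these were Nop10, an H/ACA core protein gene, at 512.5, hoip at 161.9 and Nufip at 125.4. In the small subunit they were U3-55K at 416.2, Rrp5 at 382.2 and CG12325 at 357.2. In the large subunit CG11583 scored 530.1 and RpLP0-like 443.7. The exosome genes Csl4 (423.3, a summit shared with Nup160), Dis3 (382.2, a summit shared with Rrp5) and Ski6 (198.3, shared with CG16812) were bound. For Csl4 and Dis3 a start of the other gene lay nearer to the summit. Their high scores can therefore not be assigned to the exosome genes by position alone. The unbound ones were CG2972, Sbds, Mtr3 and Mtr4, whose best pooled summits scored 64.0, 71.1, 24.7 and 78.2, and Noa36 was just inside the threshold at 87.8.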

How the data were processed

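Peak lists in narrowPeak format were deposited by the authors for the replicates, for their pool and for the pooled peaks past an IDR threshold, on dm6 and dm3. Per the text listings deposited beside the samples, each was called on immunoprecipitated reads against a control, which was not analysed here. Which aligner and which caller made them is not given in the sources used. The deposited columns used were the peak score, on a scale of its own in each list, and the summit's offset from the peak start, both on dm6. The dm3 lists were not used. The lists hold no read counts, so depth is unknown, and no interval or floor that needs it was computed. One label field names Max as the antibody and the description names GFP.

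From these, summits were set against starts of protein-coding genes on 6 arms (Ensembl release 115) and motifs were counted in the Release 6 sequence, whose arm lengths fit dm6, with Python 3.11.15, NumPy 2.4.6 and SciPy 1.17.1 (figures, matplotlib 3.10.9). The counting was tested on simulated data. For the 39 genes, the share bound and the share with CACGTG inside a start carry 95% Wilson intervals over genes. Other shares are given without an interval. No significance test was run: counts and medians stand beside those of all genes. The genes, their roles and the other lists were chosen with earlier results of these data known. Of 45 names of other genes, 3 were not matched. Genes named with replicate values are the 3 highest-scoring of each role, those without an IDR peak and those with CACGTG near the summit or start; the rest were added because all 39 are listed. The replicates have separate biological numbers in the labels, and the spread between them may be partly technical.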

Additional observations from a re-analysis of the deposited data

How the results depend on the processing

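The 35 bound genes of 39 stayed 35 with a window of 250 bp or 1000 bp and with 1 canonical start per gene, were 34 in the higher-scoring 50% of the IDR list or where the gene's own start had to be nearest, and 39 in the whole pooled list. With 1 replicate left out the count was 35 to 36. All-gene shares moved from 25.9% to between 15.5% and 57.2%. The 38 of 42 other genes ranged from 32 to 42, and from 36 to 38 with 1 replicate left out. The median score was 307.2 to 312.9. The median summit position was -25.0 to -24.0 bp, and -37.5 to -14.0 bp with 1 replicate left out. CACGTG near the summit, in 20 genes, was in 14 within 50 bp and 27 within 250 bp, and in 19 to 22 with 1 replicate left out. CACGTG inside the start, in 27 genes, was in 26 with canonical starts and 28 with both sides counted. No paired analysis was possible because the series has 1 group. The lists are capped at 30000 peaks and the IDR list is a score threshold on the pooled list, so it is no test of each site in each replicate, and a gene without an IDR peak is not shown to lack Max.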
